A study of Mus musculus with 12 samples.

Results

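The nuclear-encoded subunits of the respiratory chain and of ATP synthase were described in mouse T helper 17 (Th17) and T helper 1 (Th1) cells with and without the glucose transporter GLUT3. The members were all protein-coding genes whose symbols begin with Ndufa, Ndufb, Ndufc, Ndufs or Ndufv and a digit, the genes Sdha to Sdhd, and those that begin with Uqcr, Cox4 to Cox8 or Atp5. The rule found 87 of the 45703 genes: 38 in complex I, 4 in complex II, 8 in complex III, 20 in complex IV and 17 in complex V. Ndufa4 and its relative Ndufa4l2 were counted in complex IV, where the Ndufa4 protein is known to sit. The rule itself used symbols and gene type only, but it was set with earlier results of these data known.

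Complex I oxidizes NADH and complex II oxidizes succinate, and both pass electrons through ubiquinone to complex III, from there through cytochrome c to complex IV and on to oxygen. Complexes I, III and IV pump protons across the inner mitochondrial membrane, and complex V, the ATP synthase, lets them back to make ATP. Except for complex II, each complex also holds subunits encoded in mitochondrial DNA, which were not analysed here. Activated T cells take up much glucose and run glycolysis and respiration side by side, and GLUT3, encoded by Slc2a3, is 1 of their glucose transporters.

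CD4+ T cells of the C57BL/6 background were compared in 4 groups of 3 libraries: wild-type Th17, Slc2a3-fl/fl Cd4-cre Th17, wild-type Th1 and Slc2a3-fl/fl Cd4-cre Th1 cells. All were naive T cells at the start, then received anti-CD3/CD28 and the cytokines of their lineage, and were harvested on day 3. The Cd4-cre transgene acts in T cells from their development in the thymus on, so deletion of the floxed Slc2a3 gene precedes the culture and is not restricted to CD4+ cells. The wild-type label names neither floxed alleles nor Cre, and ages are not given in the sources used here. The labels do not tie replicates to separate mice or cultures, so each p-value below measures library-to-library spread only, part of which may be technical.

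The promoters of 3 members are shown first, because Ndufb11, Uqcrfs1 and Cox7a2l are the genes on which the genotype comparisons turn. Each sequence runs 5′ to 3′ on the gene's strand, from 250 bases before to 50 bases after the annotated start (RefSeq, GRCm38.p6). Capitals mark a cyclic AMP response element, TGACGTCA.
Ndufb11, chrX:20617570-20617869, minus strand: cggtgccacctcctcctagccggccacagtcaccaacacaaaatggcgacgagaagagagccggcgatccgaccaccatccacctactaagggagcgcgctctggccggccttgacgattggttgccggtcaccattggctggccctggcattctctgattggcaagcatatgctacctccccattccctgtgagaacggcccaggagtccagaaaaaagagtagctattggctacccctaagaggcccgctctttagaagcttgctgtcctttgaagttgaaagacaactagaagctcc
Uqcrfs1, chr13:30545267-30545566, minus strand: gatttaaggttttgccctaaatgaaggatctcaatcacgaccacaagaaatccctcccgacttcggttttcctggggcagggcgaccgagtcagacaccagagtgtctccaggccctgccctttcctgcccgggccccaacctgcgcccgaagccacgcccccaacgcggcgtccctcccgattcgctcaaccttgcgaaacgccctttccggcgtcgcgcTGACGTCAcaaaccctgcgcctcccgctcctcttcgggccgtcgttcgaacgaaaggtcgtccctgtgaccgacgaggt
Cox7a2l, chr17:83514284-83514583, minus strand: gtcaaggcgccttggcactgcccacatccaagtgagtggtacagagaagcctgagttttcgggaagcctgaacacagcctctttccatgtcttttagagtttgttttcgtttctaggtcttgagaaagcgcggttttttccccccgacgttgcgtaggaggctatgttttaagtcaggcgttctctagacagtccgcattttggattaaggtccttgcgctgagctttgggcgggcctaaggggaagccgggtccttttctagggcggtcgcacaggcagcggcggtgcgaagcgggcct

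In the Uqcrfs1 window the element stood once, and neither of the other windows held it or any of the other motifs searched. Promoters of 70 of the 87 members were matched by symbol, giving 75 windows, and the motifs were sought on both strands in these and in all 32851 windows of that length. The nuclear respiratory factor 1 core GCATGCGC stood in 13.33% of the member windows and 2.71% of all. For the YY1 core AAGATGGC the shares were 13.33% and 2.75%, for the ETS core CCGGAAGT 6.67% and 3.89%, for TGACGTCA 5.33% and 1.79%, and for the estrogen-related receptor site TCAAGGTCA 2.67% and 0.42%. The windows with TGACGTCA belonged to Ndufa10, Ndufa11, Ndufb2 and Uqcrfs1. Those with the nuclear respiratory factor 1 core included Sdhb, Uqcrc1, Cox6a1 and Atp5g2. A match is a run of letters, not a site shown to be bound.

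Values are TPM, transcripts scaled to a fixed total, divided by exon length, with a sum of 1000000 in each library. Reads recovered from them numbered 16596283 to 28496606 per library, so that 3 reads on 1 kb of exon correspond to 0.19 to 0.437 TPM, which covers counting error only. Wild-type Th17 libraries held 379, 109 and 44.6 TPM of Slc2a3 and GLUT3-deficient ones 5.14, 18.7 and 3.30 TPM, and in Th1 cells the values were 398, 95.6 and 64.7 against 6.79, 4.49 and 7.97 TPM. All GLUT3-deficient libraries were below all wild-type ones in both lineages. Th17 GLUT3-deficient replicate 2, with the highest Slc2a3 of its group, stood apart: its median absolute log2 difference from its group was 0.62, against 0.14 to 0.42 for the others.

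Markers of the labelled lineage were present: the 5 Th17 markers summed to 660 to 1186 TPM in wild-type Th17 and 20.1 to 22.3 TPM in wild-type Th1 cells. In GLUT3-deficient Th17 cells they summed to 473 to 657 TPM, with none of the 5 past the threshold. The 4 Th1 markers summed to 781 to 1349.8 TPM in wild-type and 7205 to 9113 TPM in GLUT3-deficient Th1 cells, where 3 were higher and 1 lower, and to 44.1 to 69.7 against 96.5 to 380 TPM in Th17 cells, where the highest sum was that of replicate 2. Ifng, the gene of interferon gamma, rose in both, by 4.20 on the log2 scale in Th17 and 3.43 in Th1 cells (limma adjusted p = 0.00211 and 9.47e-05). Markers of other cells moved with the genotype. Over all genes tested, 4.6% were higher and 2.7% lower without GLUT3 in Th17 cells, and 17.6% and 13.7% in Th1 cells. All 4 gamma delta T cell genes were higher in GLUT3-deficient cells of both lineages, with sums of 165 to 255 against 17.3 to 20.1 TPM in Th17 and 171 to 268 against 13.7 to 33.3 TPM in Th1 cells. Of the 6 CD8 and NK genes tested, 2 were higher in Th17 (90.5 to 108 against 49.1 to 64.2 TPM), and in Th1 cells 4 were higher and 2 lower (195 to 283 against 62.1 to 78.5 TPM). Of the 8 myeloid genes, 3 of 5 tested were higher in Th17 (44.2 to 64.9 against 12.4 to 14.6 TPM) and 2 of 3 tested in Th1 (25.2 to 46.1 against 10.9 to 14.0 TPM). Of the 6 red cell and platelet genes tested, 2 were higher in each lineage, with sums of 45.8 to 114 against 9.23 to 17.6 TPM in Th17 and 59.1 to 197 against 11.7 to 25.2 TPM in Th1 cells. Of the 5 B cell genes tested, 1 was higher in Th17 (131.5 to 198 against 113.5 to 153 TPM) and none passed in Th1 (68.4 to 475 against 88.1 to 112 TPM). The 8 CD4 T cell markers held 7535 to 10917 TPM in Th17 cells, where none passed the test, and 6 were higher in GLUT3-deficient Th1 cells (10007 to 10750 against 7114 to 8058 TPM). The part of these cells in the results below was not tested, and fewer cells of a type cannot be told apart from less RNA per cell.

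The subunits were abundant in all groups. Their TPM summed to 33004 ± 4514 (SD, n = 3) in wild-type Th17, 29837 ± 6582 in GLUT3-deficient Th17, 35842 ± 3811 in wild-type Th1 and 31461 ± 1419 in GLUT3-deficient Th1 cells. The range over libraries was 2.23% to 3.87% of all TPM. The lowest was Th17 GLUT3-deficient replicate 2, at 22336 TPM, and without it the mean of its group was 33588 TPM. Sums overlapped between the genotypes in each lineage. By complex, only the complex I sums in Th1 cells did not overlap, at 9730, 11615 and 11738 TPM in wild-type and 9449, 9353 and 8296 TPM in GLUT3-deficient libraries. Complex II was the least abundant in sum, at 1105 to 1611 TPM over all libraries.

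**Figure D1:**
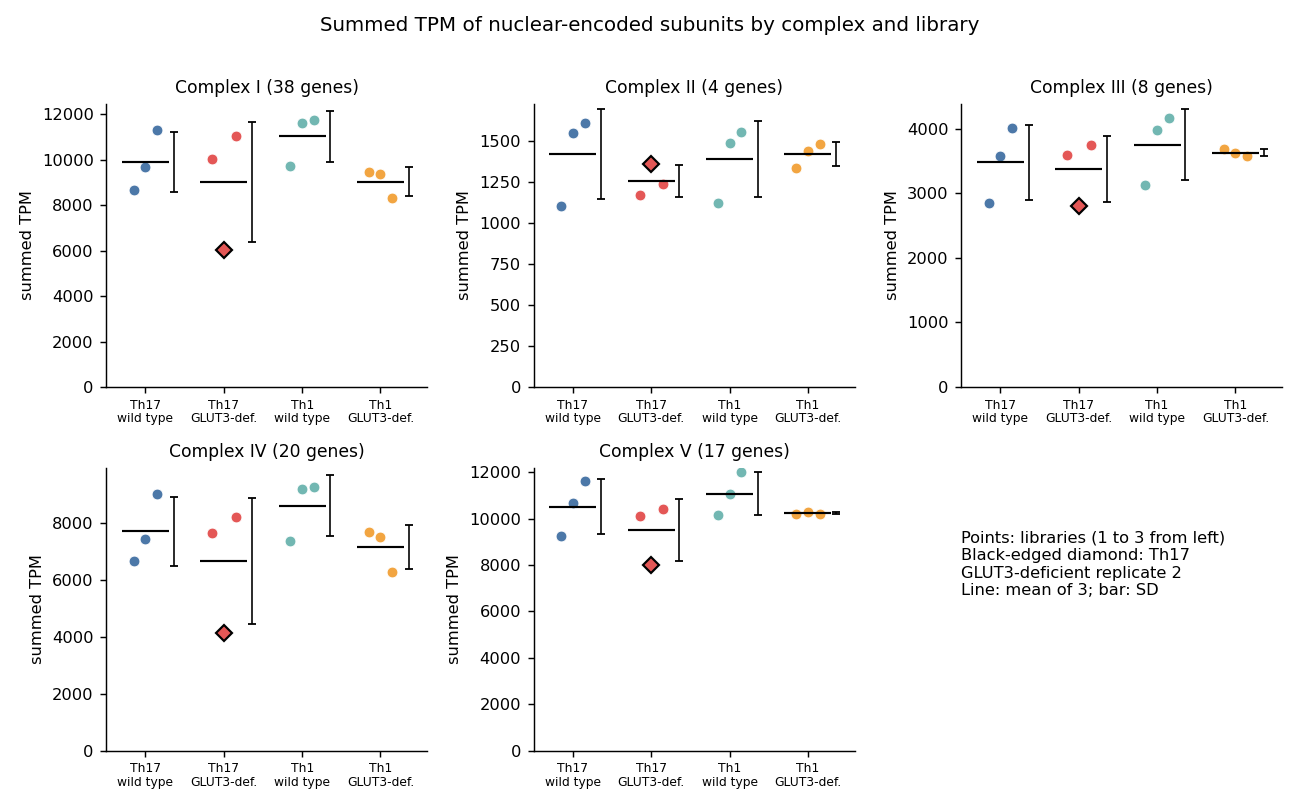
Summed TPM of the nuclear-encoded subunits of each complex (y axis, from 0) in 12 libraries, by group (x axis). Points are libraries, lines are means of 3 and bars are SD. The diamond, Th17 GLUT3-deficient replicate 2, is the lowest of the 12 libraries in complexes I, III, IV and V, and lies inside the range of its lineage in complex II.

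In Th17 cells, loss of GLUT3 went with a change that passed the test in 1 of 82 members: Ndufb11, an accessory subunit of complex I, was higher. That was 1.22% of the tested members, where 4.6% of all genes were higher. In Th1 cells 16 members were lower (19.5%, against 13.7% of all genes) and 1, Uqcrfs1, was higher (1.22% against 17.6%). The lower ones came from all 5 complexes. They were led by Cox7a2l, by Cox6b2, the form of a complex IV subunit known from testis, and by Atp5g2. Atp5g2 encodes the membrane ring subunit of ATP synthase. Cox7a2l was also lower and Uqcrfs1 also higher in Th17 cells once replicate 2 of the GLUT3-deficient cells was left out. With any other Th17 library left out, no member passed in Th17 cells. The limma test on log2(TPM + 1) took in genes that reached 1 TPM in at least 3 libraries, and p-values were adjusted by Benjamini-Hochberg over all genes, with a threshold of 0.05. The 5 members that did not enter were Cox4i2, Cox7b2, Cox8b, Cox8c and Ndufa4l2, all of complex IV.

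In Th17 cells 1.22% of the tested members were higher and 0% lower, against 4.6% and 2.7% of all genes tested. At an unadjusted p under 0.05 there were 10 of 82 members, against 3453 of 13823 genes. Limma on the recovered reads also called 0 members lower. The median log2 difference over the members was -0.28, against 0.04 over all genes, and 70 of 82 were below 0. Without Th17 GLUT3-deficient replicate 2 the member median was -0.06, against -0.11 over all genes, with 47 of 82 below 0. In that fit 2 members were higher and 1 was lower, where 7.76% and 8.44% of all genes were called. The counts were the same with the exon length trend removed from each library. The medians with all libraries were -0.34, -0.08, -0.19, -0.32 and -0.16 in complexes I to V, and without replicate 2 they were -0.06, -0.36, -0.05, 0.00 and 0.09.

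In Th1 cells 19.5% of the tested members were lower and 1.22% higher, against 13.7% and 17.6% of all genes. With all libraries the share that was higher was below the background. The median over the members was -0.30, against 0.03 over all genes, and 65 of 82 were below 0. By complex, 6 of 38, 1 of 4, 2 of 8, 4 of 15 and 3 of 17 tested members were lower in complexes I to V, with medians of -0.34, -0.07, -0.24, -0.41 and -0.14. The count of lower members depended on single libraries: it was 37 without wild-type replicate 1, 7 without wild-type replicate 2, and 5 to 8 without a GLUT3-deficient replicate. Without wild-type replicate 1 that is 45.1% of members against 15.1% of all genes, and without wild-type replicate 2 it is 8.54% against 11.8%. Without a GLUT3-deficient replicate it is 6.10% to 9.76% of members against 9.12% to 10.4% of all genes, so the place of the members relative to the background turned on the libraries used. The members are short, with a median exon length of 772 bases against 3380 for protein-coding genes tested. With the trend over exon length removed from each library, 9 members (10.98%, against 15.5% of all genes) were lower and 3 higher in Th1 cells, and the member median was -0.06.

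**Figure D2:**
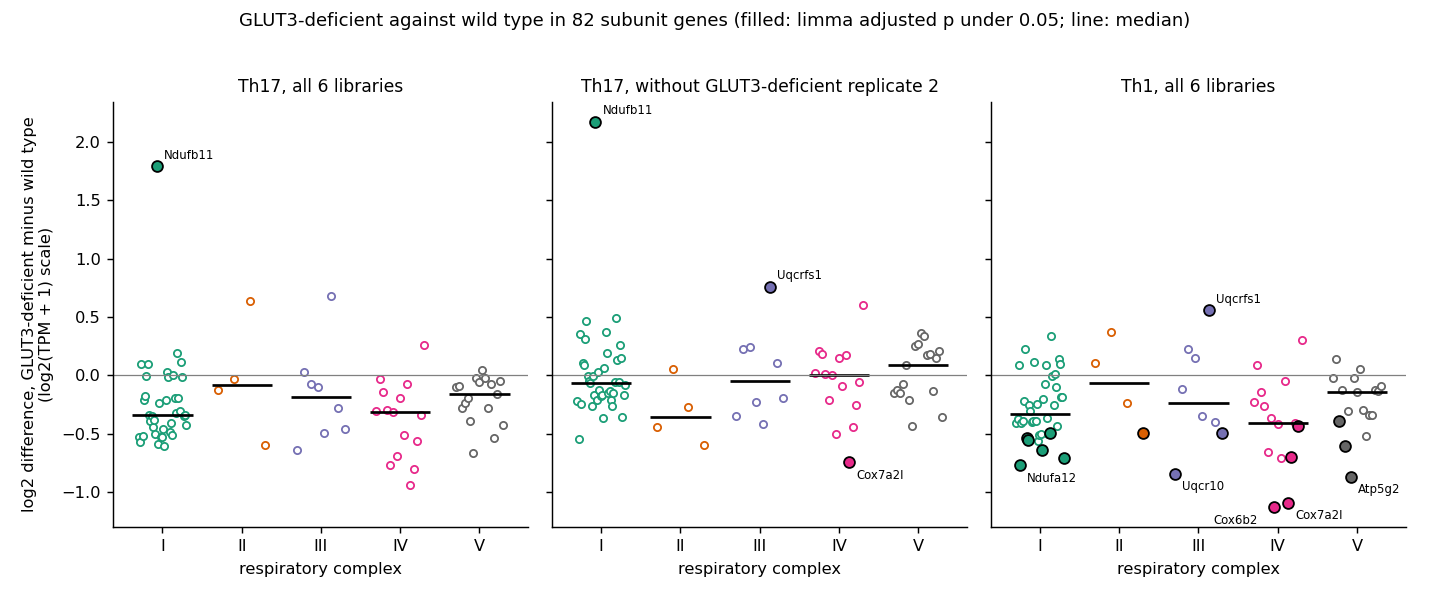
Log2 difference of GLUT3-deficient from wild-type cells (y axis, on the log2(TPM + 1) scale) for 82 members by complex (x axis), in Th17 cells, in Th17 cells without GLUT3-deficient replicate 2, and in Th1 cells. Filled points passed the test (1, 3 and 17 members), and lines are medians. Ndufb11 lies far above the other members in both Th17 panels and near 0 in Th1 cells.

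When the genotype effects of Th17 and Th1 cells were tested against each other, no member passed, where 0.638% of all genes did. At an unadjusted p under 0.05 there was 1 of 82 members, against 930 of 14579 genes. Limma on the recovered reads also called 0 members. Without Th17 GLUT3-deficient replicate 2, Ndufb11 passed, at 1.19% of all genes. For the other members a difference between the lineages in their response did not pass the test. The median of the differences over the members was -0.01, with 44 of 82 below 0, against 0.00 over all genes. Without that replicate it was 0.27, with 69 of 82 above 0, against -0.11 over all genes. In that fit 8 members were at an unadjusted p under 0.05, against 2137 of 14349 genes.

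Complex I takes in electrons through the flavoprotein Ndufv1 and a chain of iron-sulfur clusters, and the accessory subunits around this core stabilize it. Of its members, Ndufb9 was the most abundant on average, at 621 TPM over 12 libraries, and Ndufb4b the least, at 42.2 TPM. Ndufb4, Ndufb4b and Ndufb4c are near-identical copies whose reads could have been split or shared in counting, so their single values are uncertain.

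Ndufb11 is encoded on the X chromosome (20615326 to 20617619, minus strand, GRCm38.p6) and is needed for the assembly of complex I. The wild-type Th17 libraries held 240.2, 238 and 278 TPM, and the GLUT3-deficient ones 1078, 517 and 1199.5 TPM. All Th1 libraries lay between 235 and 293 TPM. The 3 GLUT3-deficient Th17 libraries thus lay above all 9 others, and the lowest of them was replicate 2. The log2 difference in Th17 cells was 1.79 ± 0.33 (SE; limma adjusted p = 0.0225), 3.47-fold on the log2(TPM + 1) scale. Without replicate 2 it was 2.17 ± 0.17 (limma adjusted p = 0.000513). The call was lost when any other Th17 library was left out or no filter was applied, with limma adjusted p between 0.000513 and 0.114 over 14 alternatives and the log2 difference between 1.57 and 2.17. In Th1 cells the difference was 0.12 ± 0.14 (limma adjusted p = 0.568).

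The difference between these genotype effects of Ndufb11 was 1.68 ± 0.37 (limma adjusted p = 0.0827). It was 2.06 ± 0.19 without Th17 GLUT3-deficient replicate 2 (limma adjusted p = 0.000461), and it also passed with the exon length trend removed. The annotated ranges of Ndufb11 and Rbm10, which runs on the other strand, overlap by 263 bases, and these libraries do not mark the strand. Rbm10, an RNA-binding splicing regulator, was measured at 25.0, 54.3 and 45.3 TPM without and 47.9, 129 and 44.2 TPM with the deletion in Th17 cells. The highest Rbm10 value was in the library with the lowest Ndufb11 of its group.

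**Figure D3:**
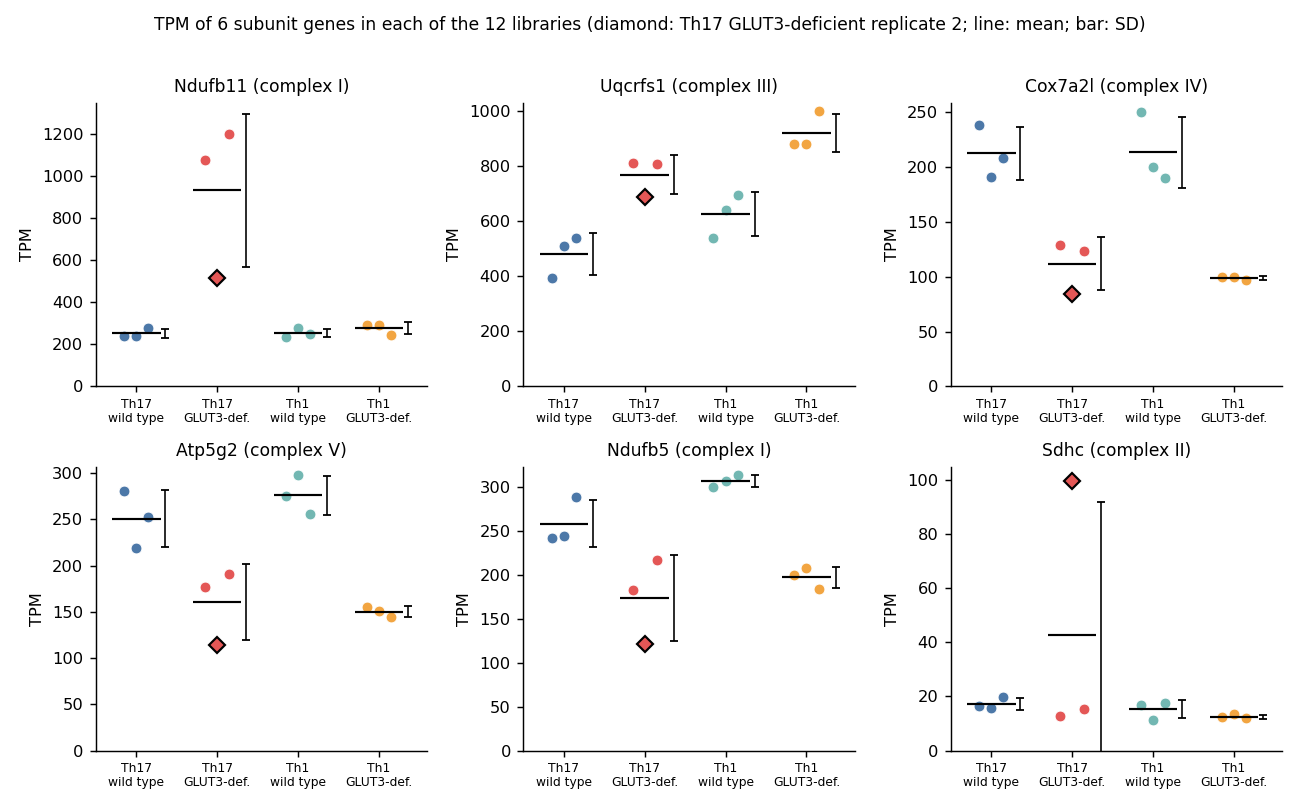
TPM (y axis, from 0) of Ndufb11, Uqcrfs1, Cox7a2l, Atp5g2, Ndufb5 and Sdhc in 12 libraries, by group (x axis). Points are libraries, lines are means of 3 and bars are SD, with the lower end of the Sdhc bar cut at 0. Ndufb11 is high in GLUT3-deficient Th17 cells, at 517 to 1199.5 TPM, and Sdhc is high in 1 library, the diamond, at 99.4 TPM.

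Of the core subunits of complex I, Ndufs1, Ndufs3, Ndufs7, Ndufs8, Ndufv1 and Ndufv2 did not pass the test in either lineage. Ndufv1, which binds the flavin, averaged 286 ± 51 TPM in wild-type and 223 ± 12 TPM in GLUT3-deficient Th17 cells (SD, n = 3), with a log2 difference of -0.35 ± 0.20. Ndufs1, which carries several of the iron-sulfur clusters, was 58.8, 91.4 and 73.7 TPM in wild-type and 67.4, 108 and 55.0 TPM in GLUT3-deficient Th17 cells. These values overlapped, and the highest was again that of replicate 2. Over these 6 subunits the log2 differences lay between -0.35 and 0.11 in Th17 and between -0.25 and 0.34 in Th1 cells.

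The 6 members of complex I that fell in Th1 cells were all accessory subunits: Ndufa12, Ndufv3, Ndufb5, Ndufa7, Ndufa6 and Ndufc2. Ndufb5, of the membrane arm, went from 300.1, 307 and 313 TPM with GLUT3 to 199.9, 208 and 184 TPM without it in Th1 cells. The groups did not overlap, and the log2 difference of -0.64 ± 0.12 (limma adjusted p = 0.00515) passed the test under all 14 alternatives. Ndufa12, which is added late in assembly beside the NADH site, was 203, 259 and 302 TPM against 134, 167 and 142 TPM. Its log2 difference was -0.77 ± 0.18 (limma adjusted p = 0.0107), and it lost the call without GLUT3-deficient replicate 1 and in the fit to all 12 libraries. For Ndufv3, a small subunit of the NADH module, the values were 363, 306 and 231 against 192, 161 and 191 TPM, without overlap, at -0.70 ± 0.18 (limma adjusted p = 0.0192). The others, Ndufa7, Ndufa6 and Ndufc2, fell by 0.55, 0.53 and 0.49 on the log2 scale. None of them passed with the exon length trend removed. In Th17 cells the log2 differences of these 6 were between -0.61 and -0.34, none past the threshold, and for Ndufb5 the values were 242, 244 and 289 against 183, 121 and 217 TPM.

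Complex II, succinate dehydrogenase, is the only complex that is wholly nuclear-encoded, with a flavoprotein (Sdha), an iron-sulfur protein (Sdhb) and membrane anchors (Sdhc and Sdhd). Sdhd fell in Th1 cells, from 435, 505 and 621 TPM to 333, 395 and 375 TPM, with a log2 difference of -0.49 ± 0.16 (limma adjusted p = 0.0473). The groups did not overlap, but the call was lost in 8 of 14 alternatives. In Th17 cells Sdhd was 352, 458 and 494 against 279, 284 and 290.4 TPM, also without overlap, at -0.60 ± 0.19 (limma adjusted p = 0.110). Replicate 2 lay between the other libraries of its group there.

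Sdhc was the least abundant of the 4, at 11.4 to 19.7 TPM in 11 of 12 libraries, while Th17 GLUT3-deficient replicate 2 held 99.4 TPM. The other GLUT3-deficient Th17 libraries held 12.9 and 15.2 TPM, so the group mean of 42.5 TPM rests on 1 library. Without it the mean was 14.1 TPM, and the log2 difference from wild type turned from 0.64 ± 0.71 to -0.27 ± 0.21, neither past the threshold. Sdhb was 473, 748 and 690.1 TPM in wild-type and 774, 819 and 829 TPM in GLUT3-deficient Th1 cells, with a log2 difference of 0.37 ± 0.18 (limma adjusted p = 0.152). It passed only with the exon length trend removed. Sdha did not pass in either lineage, and its highest value, 397 TPM, was in Th17 GLUT3-deficient replicate 2.

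Complex III passes electrons from ubiquinol to cytochrome c. Its Rieske iron-sulfur subunit, Uqcrfs1, was the most abundant member on average, at 699 TPM, and Uqcrq the least abundant, at 233 TPM. Uqcrfs1 (chromosome 13, 30540312 to 30545316) was higher without GLUT3: wild-type Th17 libraries held 396, 509.6 and 540.8 TPM, and GLUT3-deficient ones 812, 688 and 807 TPM. In Th1 cells it was 538, 643 and 697 TPM against 879, 881 and 1000.8 TPM. In both lineages all GLUT3-deficient libraries were above all wild-type ones. The log2 difference was 0.56 ± 0.14 in Th1 (limma adjusted p = 0.0166), a call that was lost without any 1 of the GLUT3-deficient replicates. In Th17 cells it was 0.68 ± 0.20 (limma adjusted p = 0.0847), and 0.76 ± 0.19 without replicate 2 (limma adjusted p = 0.0318). With any other Th17 library left out it did not pass there.

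No other member of complex III rose, except Uqcrb in Th1 cells with the exon length trend removed (0.57, limma adjusted p = 0.0366). Uqcr10, a small subunit, fell in Th1 cells, from 295, 405 and 461 TPM to 214, 239 and 185 TPM, by 0.85 ± 0.19 on the log2 scale (limma adjusted p = 0.00951). The groups did not overlap, and the call was lost only in the fit to all 12 libraries. Uqcrq fell by 0.50 ± 0.16 (limma adjusted p = 0.0443) and lost the call in 9 of 14 alternatives. The core proteins Uqcrc1 and Uqcrc2 did not pass, with log2 differences of -0.10 and -0.49 in Th17 and 0.15 and -0.35 in Th1 cells. With the exon length trend removed, Uqcrc2 was lower in Th1 cells (-0.38, limma adjusted p = 0.0419).

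Complex IV, cytochrome c oxidase, has subunits with forms made in different tissues, and these T cells held mainly the widely expressed ones. Cox4i1 was the most abundant member, at 822 to 1837 TPM, while Cox4i2, known from lung and low oxygen, was at 0 to 3.86 TPM. Cox6a1 stood at 628 to 1471 TPM and the muscle form Cox6a2 at 0 to 9.08 TPM. Cox6b1 stood at 449 to 1196 TPM and Cox6b2 at 1.89 to 16.9 TPM. Cox7a2 stood at 119.6 to 267 TPM and the muscle form Cox7a1 at 5.72 to 24.5 TPM. Cox8a stood at 566 to 1356 TPM, and Cox8b, Cox8c and Cox7b2 were at 0 in every library. Ndufa4 stood at 389.8 to 965 TPM, and Ndufa4l2, known from low oxygen, was at 0.068 TPM or less.

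Cox7a2l (chromosome 17, 83501917 to 83514333) was lower without GLUT3 in Th1 cells, at 250.6, 199.8 and 190.1 TPM in wild-type and 99.7, 99.998 and 97.2 TPM in GLUT3-deficient libraries. In Th17 cells the values were 239, 191 and 209 TPM against 129, 84.0 and 123 TPM. The groups did not overlap in either lineage. The log2 difference in Th1 was -1.09 ± 0.15 (limma adjusted p = 0.000934), 0.469 of the wild-type level, and it passed under all 14 alternatives. In Th17 it was -0.94 ± 0.23 (limma adjusted p = 0.0521), which missed the threshold, and -0.74 ± 0.18 without replicate 2 (limma adjusted p = 0.0283). With the replicate number as a block it also passed in Th17 cells (limma adjusted p = 0.036). It did not pass there with any Th17 library other than that replicate left out. The difference between the effects in the lineages was 0.15 ± 0.26 (limma adjusted p = 0.9997).

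Of the other complex IV members, Cox6b2, Cox7b and Cox8a fell in Th1 cells. Cox6b2 was 8.77, 16.9 and 14.3 TPM against 7.19, 7.09 and 2.83 TPM, a log2 difference of -1.13 ± 0.33 (limma adjusted p = 0.0319) that lost the call in 6 of 14 alternatives. Cox7b was 260.5, 285 and 355 TPM against 199.8, 203 and 152 TPM, at -0.70 ± 0.17 (limma adjusted p = 0.0162), and Cox8a fell by 0.43 ± 0.13 (limma adjusted p = 0.0348). Cox7b lost the call in 3 of 14 alternatives and Cox8a in 8, both among them with the exon length trend removed, where Cox8a was at -0.09. Ndufa4 was 404, 697 and 965 TPM in wild-type and 917, 819 and 682 TPM in GLUT3-deficient Th1 cells, overlapping, with a log2 difference of 0.30 ± 0.28 (limma adjusted p = 0.456).

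Complex V turns the proton gradient into ATP: Atp5a1 and Atp5b form the catalytic head, Atp5c1 and Atp5e the rotating stalk, and Atp5g1, Atp5g2 and Atp5g3 encode the same mature ring subunit with different import signals. Atp5b was the most abundant of all members, at 2956 TPM on average, and Atp5k the least abundant of complex V, at 151 TPM. The genes of the head did not pass the test in either lineage. Atp5b was 3045 ± 258 against 2847 ± 131 TPM in Th17 and 2819 ± 134 against 3115 ± 308 TPM in Th1 cells (SD, n = 3), with log2 differences of -0.09 ± 0.18 and 0.14 ± 0.12. Atp5a1 had log2 differences of -0.10 ± 0.18 and -0.02 ± 0.13.

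Of the ring genes, Atp5g2 fell in Th1 cells, from 276, 298 and 256 TPM to 156, 151 and 144 TPM, a log2 difference of -0.87 ± 0.13 (limma adjusted p = 0.00141), and it passed under all 14 alternatives. In Th17 cells it was 281, 219 and 252 TPM against 177, 114 and 192 TPM, also without overlap, at -0.67 ± 0.25 (limma adjusted p = 0.151). Atp5g1 and Atp5g3 did not pass, with log2 differences in Th1 of -0.30 ± 0.17 and -0.02 ± 0.20. Atp5g3, the most abundant of the 3, averaged 574 TPM. In the stalk, Atp5e fell by 0.61 ± 0.17 (limma adjusted p = 0.0261) and Atp5c1 by 0.39 ± 0.12 (limma adjusted p = 0.0335) in Th1 cells. They lost the call in 7 and 6 of 14 alternatives.

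Th17 GLUT3-deficient replicate 2 differed from the other 2 libraries of its group in most members. Its log2 difference from their mean had a median of -0.83, and 75 of 82 members were below 0. The medians were -0.86, -0.68, -0.95 and -0.78 in complexes I, III, IV and V, and 0.48 in complex II. The difference followed exon length, with a Spearman correlation of 0.67 over the 82 members and 0.59 over 14579 genes, as a description of this library. Over 408 genes with under 800 bases of exon the median was -0.87, and over 7111 genes with at least 2500 bases it was 0.85. Long members such as Sdha (397 TPM against a mean of 205 in the other 2), Ndufs1 (108 against 61.2), Uqcrc1 (808 against 621) and Atp5a1 (1073 against 974) were not low there, while Ndufa11 (57.5 against 98.7), also long, was. The mitochondrial ribosomal RNA mt-Rnr1 was 61.1 TPM in replicate 2 and 670.4 and 769 TPM in the others.

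**Figure D4:**
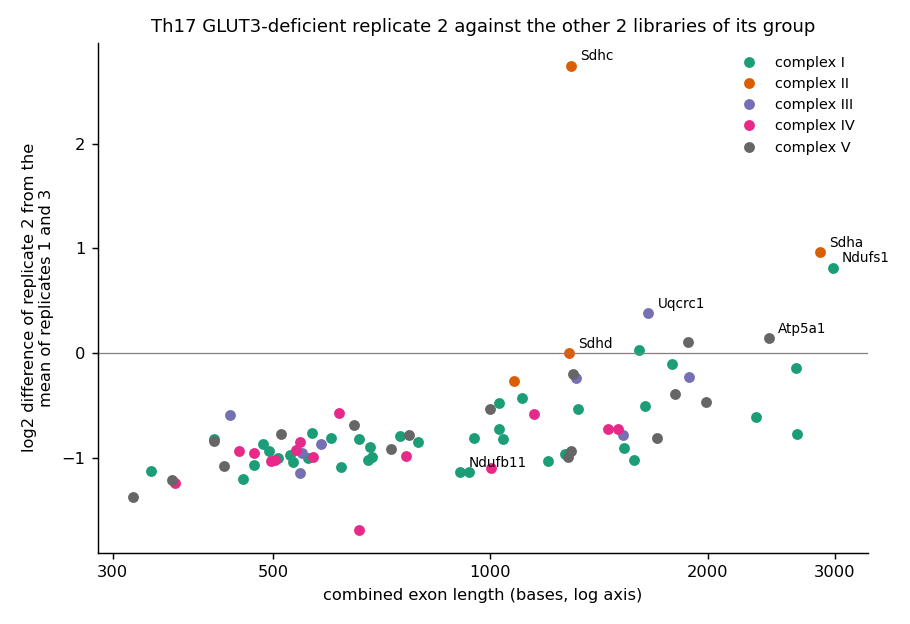
Log2 difference of Th17 GLUT3-deficient replicate 2 from the mean of replicates 1 and 3 (y axis) against combined exon length in bases (x axis, log scale) for 82 members, coloured by complex. Most members lie below 0, with a median of -0.83, and Ndufs1, Sdha and Atp5a1, among the longest, lie above it. Sdhc stands alone at the top.

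In wild-type cells no member passed the test of Th17 against Th1, where 3.63% of all genes did. At an unadjusted p under 0.05 there were 2 of 82 members, against 2134 of 14579 genes, and limma on the recovered reads called 0 members. The median log2 difference of Th17 from Th1 was -0.16 over the members and 0.14 over all genes. Rescaling by median-of-ratios moved the all-gene median to -0.01 and the member median to -0.34. In GLUT3-deficient cells Ndufb11 was higher in Th17, at 1.67 ± 0.26 (limma adjusted p = 0.00197), where 3.35% of genes were higher, and it passed under all 14 alternatives. Atp5pb, the stator subunit b of ATP synthase, was lower in Th17, at -0.58 ± 0.15 (limma adjusted p = 0.0383), where 2.56% of genes were lower. It stood at 546, 478 and 550.5 TPM in Th17 and 823, 777 and 744 TPM in Th1 cells, without overlap, but lost the call in 8 of 14 alternatives.

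Without Th17 GLUT3-deficient replicate 2 this comparison gave 2 members higher in Th17, against 4.34% of genes, and 0 lower, against 4.15%. The second was Cox7a1, at 1.18 ± 0.32 (limma adjusted p = 0.0427), with 18.0 and 22.5 TPM in the remaining Th17 and 12.3, 8.15 and 5.72 TPM in the Th1 libraries. The replicate 2 left out stood at 7.96 TPM. These comparisons share libraries with the genotype comparisons above and are not independent of them.

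**Figure D5:**
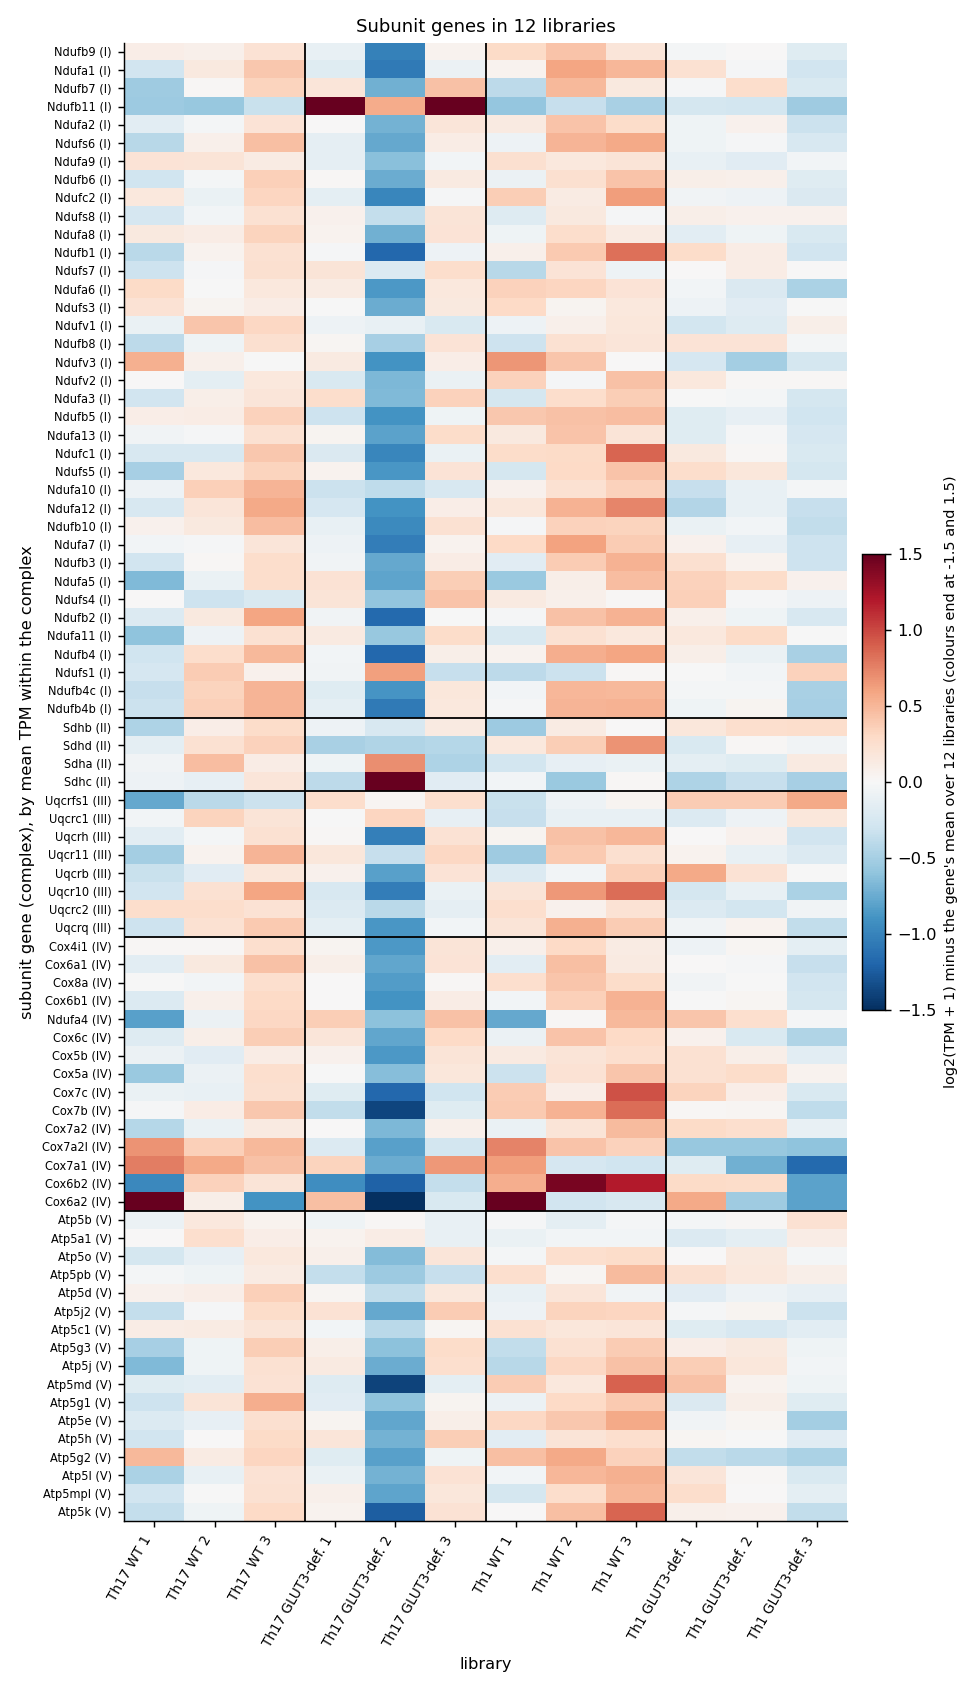
Log2(TPM + 1) of tested members (rows, by complex and mean TPM) minus each gene's mean over 12 libraries (columns, by group). Th17 GLUT3-deficient replicate 2 is low in most rows, and Ndufb11 is high in all 3 GLUT3-deficient Th17 libraries and low in the other 9.

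Other genes of the pathway were taken from lists. Of 9 carriers and further subunits, the adenine nucleotide translocases Slc25a4 and Slc25a5, which exchange ADP for ATP across the inner membrane, fell in both lineages, by 1.01 and 0.93 on the log2 scale in Th17 and by 0.84 and 0.41 in Th1 cells (limma adjusted p = 0.0177, 0.0239, 0.00114 and 0.0249). The other 7 did not pass in either, so 2 of 9 fell, against 2.7% and 13.7% of all genes. Of the assembly factors, 2 of 50 tested fell in Th17 cells (4% against 2.7% of all genes). They were Ecsit of complex I (-1.15, limma adjusted p = 0.0318) and Cox10, which modifies heme for complex IV (-0.87, limma adjusted p = 0.0406). Without Th17 GLUT3-deficient replicate 2, 9 of 50 fell (18% against 8.44% of all genes) and 2 rose (4% against 7.76%), those that rose being Sdhaf4 and Ndufaf3. In Th1 cells 13 of 51 fell (25.5% against 13.7% of all genes) and 3 rose (5.88% against 17.6%). Those with the smallest p were Sdhaf3 of complex II (-1.29), Nubpl of complex I (-0.82) and Uqcc3 of complex III (-0.93), which fell, and Ndufaf3 of complex I (0.99), which rose.

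Of 18 tested regulators of mitochondrial transcription and biogenesis, none passed in Th17 cells with all libraries. Without GLUT3-deficient replicate 2 Myc fell (-0.82, limma adjusted p = 0.0241), 5.56% of the list against 8.44% of all genes. In Th1 cells 2 fell, 11.1% against 13.7% of all genes: the mitochondrial transcription elongation factor Tefm (-0.64, limma adjusted p = 0.0148) and Myc (-0.59, limma adjusted p = 0.0225). None of the genes in these 3 lists passed the test of a difference between the lineages in its genotype effect. Between wild-type lineages 1 of 51 assembly factors passed (1.96% against 3.63% of all genes). It was Cox10, 0.92 higher in Th17 on the log2 scale (limma adjusted p = 0.0156). Rows named as pseudogenes of members numbered 13 and were left out. They stood at 0.48 to 179.8 TPM, so some reads of these members may have been counted there, and the reverse.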

How the data were processed

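Total RNA of 12 libraries was measured by SMART-Seq v4 full-length cDNA amplification and Nextera XT tagmentation, per the labels' protocols, a preparation that does not mark the strand. Tools listed in the submitters' processing notes, with no roles given, include STAR 2.7.2b and featureCounts 1.6.4, and the build is GRCm38.p6. For each lineage the authors deposited TPM for 45703 genes, summing to 1000000 in every library, beside the combined exon length of each gene. TPM times exon length gave whole reads, within 0.02, for 100% of the values in every library.

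Members, pathway lists and marker lists were chosen with earlier results of these data known. Tests used limma 3.58.1 (R 4.3.3; eBayes with a mean-variance trend, two-sided) on log2(TPM + 1), for all genes that reached 1 TPM in at least 3 libraries entering the fit. Benjamini-Hochberg adjustment ran over all of them, and the threshold was 0.05. This scale understates the changes of low genes. Genotypes were compared within each lineage on 6 libraries, and the other comparisons used 4 group means over 12 libraries. The steps were tested on simulated data. Alternatives were pseudocounts of 0.1 and 5, no filter, median-of-ratios scaling, voom on recovered reads, removal of the exon length trend, a replicate block, other sets of libraries, and leaving out each replicate.

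Named were the called members, up to 5 per complex and comparison, the paralog pairs, core subunits, and the highest and lowest member of each complex. After their values were seen, Ndufb2, Ndufa10 and Ndufa11 were named for their promoters, and Rbm10, Ndufb4 and Ndufb4c for shared reads. Ndufc2, Uqcrb, Sdhaf4 and Ifng were named for their calls, also after their values were seen. The values of 1 tested member are not reported here, and the heat map leaves it out. Same-numbered Th17 libraries of both genotypes deviated together (r = 0.14, 0.41 and 0.23), as did wild-type libraries of both lineages (0.72, 0.26 and 0.53). On this correlation alone the numbers were taken to pair libraries there. Libraries of different number ran from r = -0.41 to 0.11 and from -0.61 to 0.28, so the ranges touch in wild type. The main fits did not use the pairing. In the other comparisons same-numbered libraries did not all deviate together (lowest r = -0.07 and -0.19).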

Additional observations from a re-analysis of the deposited data

Results flagged for a closer look

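The genotype effect on Ndufb11 differed between the lineages by 2.06 on the log2 scale when Th17 GLUT3-deficient replicate 2 was left out, by a test of the difference itself (limma adjusted p = 0.000461). In that fit Ndufb11 was 1078 and 1199.5 TPM in GLUT3-deficient Th17 cells, while GLUT3-deficient Th1 cells held 293, 291 and 242 TPM. With all libraries the difference was 1.68 and missed the threshold (limma adjusted p = 0.0827).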

How the results depend on the processing

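The median log2 difference over the members was -0.28 in Th17 cells and lay between -0.44 and -0.06 with a library left out and between -0.40 and -0.05 under the other alternatives. In Th1 cells it was -0.30, and between -0.38 and -0.23 and between -0.40 and -0.06. The values closest to 0 came without Th17 GLUT3-deficient replicate 2 or with the exon length trend removed. For Th17 against Th1 in GLUT3-deficient cells the median was -0.16, and 0.08 without that replicate. In Th17 cells, 0 members were higher with no filter on low TPM, against 1.95% of all genes. With the exon length trend removed or all 12 libraries 2 were higher, 2.44% against 8.17% and 10.7% of all genes. With a library left out 0 to 2 were higher, against 0.642% to 7.76% of all genes. There, 1 member was lower with the length trend removed (1.22% against 5.58%) and 6 with all 12 libraries (7.32% against 9.45%). With a library left out 0 to 1 were lower, against 0.111% to 8.44% of all genes. In Th1 cells, 3 were higher with the length trend removed (3.66% against 16.7%). With a library left out 0 to 1 were higher there, against 10.4% to 19.7% of all genes. There, 9 were lower with no filter (10.8% against 6.52% of all genes) and 9 with the length trend removed (10.98% against 15.5%). All 12 libraries gave 3 lower (3.66% against 8.42%) and voom gave 21 (25.6% against 17.8%). With a library left out 5 to 37 were lower, 6.10% to 45.1% against 9.12% to 15.1% of all genes. The difference between the genotype effects gave 1 higher member with the length trend removed (1.22% against 0.617%). With a library left out it gave 0 to 1, against 0.104% to 0.544% of all genes. For Th17 against Th1 in GLUT3-deficient cells, 1 to 2 were higher with a library left out, against 1.72% to 4.34% of all genes. In that comparison 0 were lower with voom, with the 6 libraries of the genotype and with any library left out. The shares of all genes there were 3.46%, 2.23% and 1.38% to 4.15%. Median-of-ratios scaling moved the summed TPM of GLUT3-deficient Th1 cells from 3630 to 3811 in complex III and from 10231 to 10737 in complex V. These shifts exceeded the small SD of that group, 58.7 and 37.2 TPM. Wild-type Th1 sums also moved, from 3755 to 4043 and from 11076.5 to 11920 TPM, within their SD of 555 and 914 TPM. The cause was not tested in any of these. Among the members named by the naming rule, 3342 values stayed on their side of the threshold, 83 lost the call and 25 gained it. The 3342 include values of members not called in the main fit, which had no call to lose. None turned direction while called.

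With the replicate number as a block, 1 member was lower in Th17 cells, Cox7a2l, at 1.22% against 3.65% of all genes. The libraries were taken as paired there. In Th1 cells the block left the counts at 16 lower and 1 higher, with Cox7a1 in place of Atp5c1. That was 19.5% and 1.22%, against 14.5% and 18.7% of all genes, and the numbers did not pair there. In the other comparisons it changed no count.

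With 3 libraries a group, whether a call on a member passed often rested on 1 library. Counting error is small beside the spread between libraries for the abundant members, and it matters most for Cox6a2, Cox6b2 and Cox7a1.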
